A study of Mus musculus with 12 samples.

Results

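The Krüppel-like factors described here are 10 mouse genes, Klf2, Klf3, Klf4, Klf5, Klf6, Klf9, Klf10, Klf11, Klf13 and Klf15, measured in liver by 18 probes of the 41174 on a one-colour oligonucleotide array. For 9 of them the probes carried the gene's name in the array design, and Klf11 stood there under its older name, Tieg3, and was matched by its RefSeq accession. All 10 were among the 18730 genes, of 27824, that could be tested. The 27824 include 7210 probes without a gene name, each counted as a gene. Those of them that could be tested are part of the shares of all genes given below. The probe that stood for each of the 10 members was well above background on all 12 arrays and saturated on none. Klf4 and Klf10 had 1 probe each and the other 8 genes had 2.

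The 12 arrays were hybridised with total liver RNA from 12 male C57BL/6 mice, 8 to 10 weeks old, with 3 mice in each of 4 groups: wild-type untreated, wild-type given dexamethasone, HESKOL untreated and HESKOL given dexamethasone. Dexamethasone, a synthetic glucocorticoid, was injected into the peritoneum at 1 mg/kg and the liver was taken 6 hours later. Every mouse of all 4 groups had been adrenalectomized, which removes the source of its own glucocorticoids, and no injection of the untreated mice is described in the labels. HESKOL is not spelled out in the labels. The title of the study names Hes1, a transcriptional repressor that acts within the Notch pathway. The promoter or cell type behind the HESKOL change is not given in the sources used here.

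Krüppel-like factors are transcription factors with zinc fingers at the C-terminal end that bind GC-rich and CACCC sequences in promoters. Their N-terminal parts differ, so that some members recruit coactivators and others corepressors such as CtBP or Sin3A. In liver, Klf9 and Klf15 are known as direct targets of the glucocorticoid receptor, Klf15 is known for its part in amino acid breakdown and gluconeogenesis, Klf2 and Klf4 for vascular endothelium, and Klf6 and Klf4 as early response genes.

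One probe each of 4 members reaches its zinc fingers and is shown 5′ to 3′. It shows what the arrays read in, or for Klf9 at the end of, a conserved domain. For Klf5, Klf13 and Klf9 this is the probe that stands for the gene below, and for Klf15 it is the second probe. In the Klf5 and Klf13 probes the capitals mark the codons of the linker that joins neighbouring fingers. In the Klf15 probe they mark those of a run that starts and ends with a zinc-binding histidine. The run marked in the Klf9 probe also goes from histidine to histidine. Only its first histidine belongs to a finger, the last one, and most of that probe lies past the fingers.
Klf5: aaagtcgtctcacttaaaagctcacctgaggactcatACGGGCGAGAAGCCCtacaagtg
Klf13: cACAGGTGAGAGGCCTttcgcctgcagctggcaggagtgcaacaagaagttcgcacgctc
Klf9: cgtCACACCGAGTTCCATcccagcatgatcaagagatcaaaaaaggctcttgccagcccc
Klf15: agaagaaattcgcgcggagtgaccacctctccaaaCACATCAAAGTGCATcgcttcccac
With their linkers aligned, the Klf5 and Klf13 probes share 24 positions, of which 15 (62.5%) hold the same base. In the mm7 coordinates of the array design the Klf5 probe runs across 9733 bp of chromosome 14 and the Klf13 probe across 46229 bp of chromosome 7, so each 60-base probe joins exons on both sides of an intron. The second Klf5 probe lies inside the span of the first and reached well above background on 0 of the 12 arrays. The Klf9 probe lies at chr19:22862974-22863033 and the Klf15 probe at chr6:90552882-90552941, both without a gap.

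Upstream sequence from RefSeq (GRCm38.p6) was at hand for 8 of the 10 members, all but Klf5 and Klf10. The 250 bases before the start of Klf9, Klf11 and Klf3 are printed because these were the members that rose with dexamethasone. Capitals mark the GC box GGGCGG and the CACCC box, on either strand, the kind of sequence the family itself binds.
Klf9, chr19:23140976-23141225, plus strand:
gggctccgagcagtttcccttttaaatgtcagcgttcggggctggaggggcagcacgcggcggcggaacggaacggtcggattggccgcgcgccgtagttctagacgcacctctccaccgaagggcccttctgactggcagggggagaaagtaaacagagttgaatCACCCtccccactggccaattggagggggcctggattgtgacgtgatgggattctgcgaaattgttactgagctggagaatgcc
Klf11, chr12:24651121-24651370, plus strand:
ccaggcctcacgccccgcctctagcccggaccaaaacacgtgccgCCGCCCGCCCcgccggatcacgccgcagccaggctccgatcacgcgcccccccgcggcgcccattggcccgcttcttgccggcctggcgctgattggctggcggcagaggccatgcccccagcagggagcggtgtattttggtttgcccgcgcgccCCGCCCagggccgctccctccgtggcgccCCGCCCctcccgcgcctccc
Klf3, chr5:64803271-64803520, plus strand:
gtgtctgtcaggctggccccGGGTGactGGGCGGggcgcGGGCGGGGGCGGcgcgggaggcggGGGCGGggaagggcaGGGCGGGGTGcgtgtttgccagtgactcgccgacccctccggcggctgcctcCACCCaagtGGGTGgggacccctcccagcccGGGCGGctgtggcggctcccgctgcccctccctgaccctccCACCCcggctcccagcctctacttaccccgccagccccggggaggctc
GC boxes were found in 7 of the 8 windows, against 32.7% of all 32851 windows in the table, and Klf9 was the member without one. The 8 windows held between 59.6% and 78.4% G and C, against a median of 52.4% over all windows. Klf3 had 6 GC boxes and 5 CACCC boxes, some of which overlap each other, and Klf9 had 1 CACCC box and Klf11 none. CACCC boxes occurred in 5 of the 8 windows and in 52.0% of all windows. The palindromic glucocorticoid response element, searched as 2 perfect arms around 3 free bases, occurred in none of the 8 windows and in 3 of the 32851, and its single arm TGTTCT in none of the 8 and in 16.1% of all windows. Of the sequences that repressors of the Hes family are known to bind, the N box CACNAG was in none of the 8 windows (36.7% of all), and the class C site CACGCG was in those of Klf9, Klf11 and Klf15 (7.6% of all). The E box CACGTG was in the windows of Klf4, Klf6, Klf11 and Klf15 (6.0% of all). The TATA box TATAAA, the cAMP response element TGACGTCA and the serum response element known as the CArG box were found in none of the 8. All motifs were searched on both strands. A match is a description of these letters and not a binding site, and these windows do not reach distant enhancers.

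Signals are given as log2 values relative to the 75th percentile of the array, so that 0 is the brightness below which 75% of the spots of that array lie. Differences between groups are log2 changes, and no probe's level is set against another's. The arrays were alike in overall quality, with 62.2% to 72.3% of spots well above background. The Hes1 signal differed between HESKOL and wild-type livers by -1.12 without and -1.10 with dexamethasone. Neither difference passed adjustment over all genes (limma, adjusted p = 1 and 0.249). Treated livers of the 2 genotypes did not overlap for Hes1, as for 18.2% of all genes. Dexamethasone replicate 1 of the wild-type group stood farthest from its group, at a root mean square difference of 0.994 over all tested genes against 0.463 to 0.799 for the other 11 arrays. In that liver 2 known glucocorticoid receptor targets were not raised. Fkbp5, a chaperone of the receptor, was at -0.998, against 3.45 and 3.98 in the other treated wild-type livers and -0.65 to 1.19 in the untreated ones. Tsc22d3, the leucine zipper GILZ, was at 2.40, against 5.51 and 4.32 and against 3.43 to 3.75. Other targets were raised there, such as Tat at 8.55 against 6.67 to 7.56 in untreated wild-type livers. The liver is kept under its label, and the changes of Klf9, Klf11, Klf3, Klf15, Klf6 and Klf4 are also given without it. Arrays lay on 3 slides of 4, and no slide held both treatments of 1 genotype. Albumin, which hepatocytes make, lay between 8.59 and 9.36 on all arrays, but some other hepatocyte markers moved with treatment, as given below. Since whole liver was measured, fewer cells of a type and less RNA per cell cannot be told apart.

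**Figure D1:**
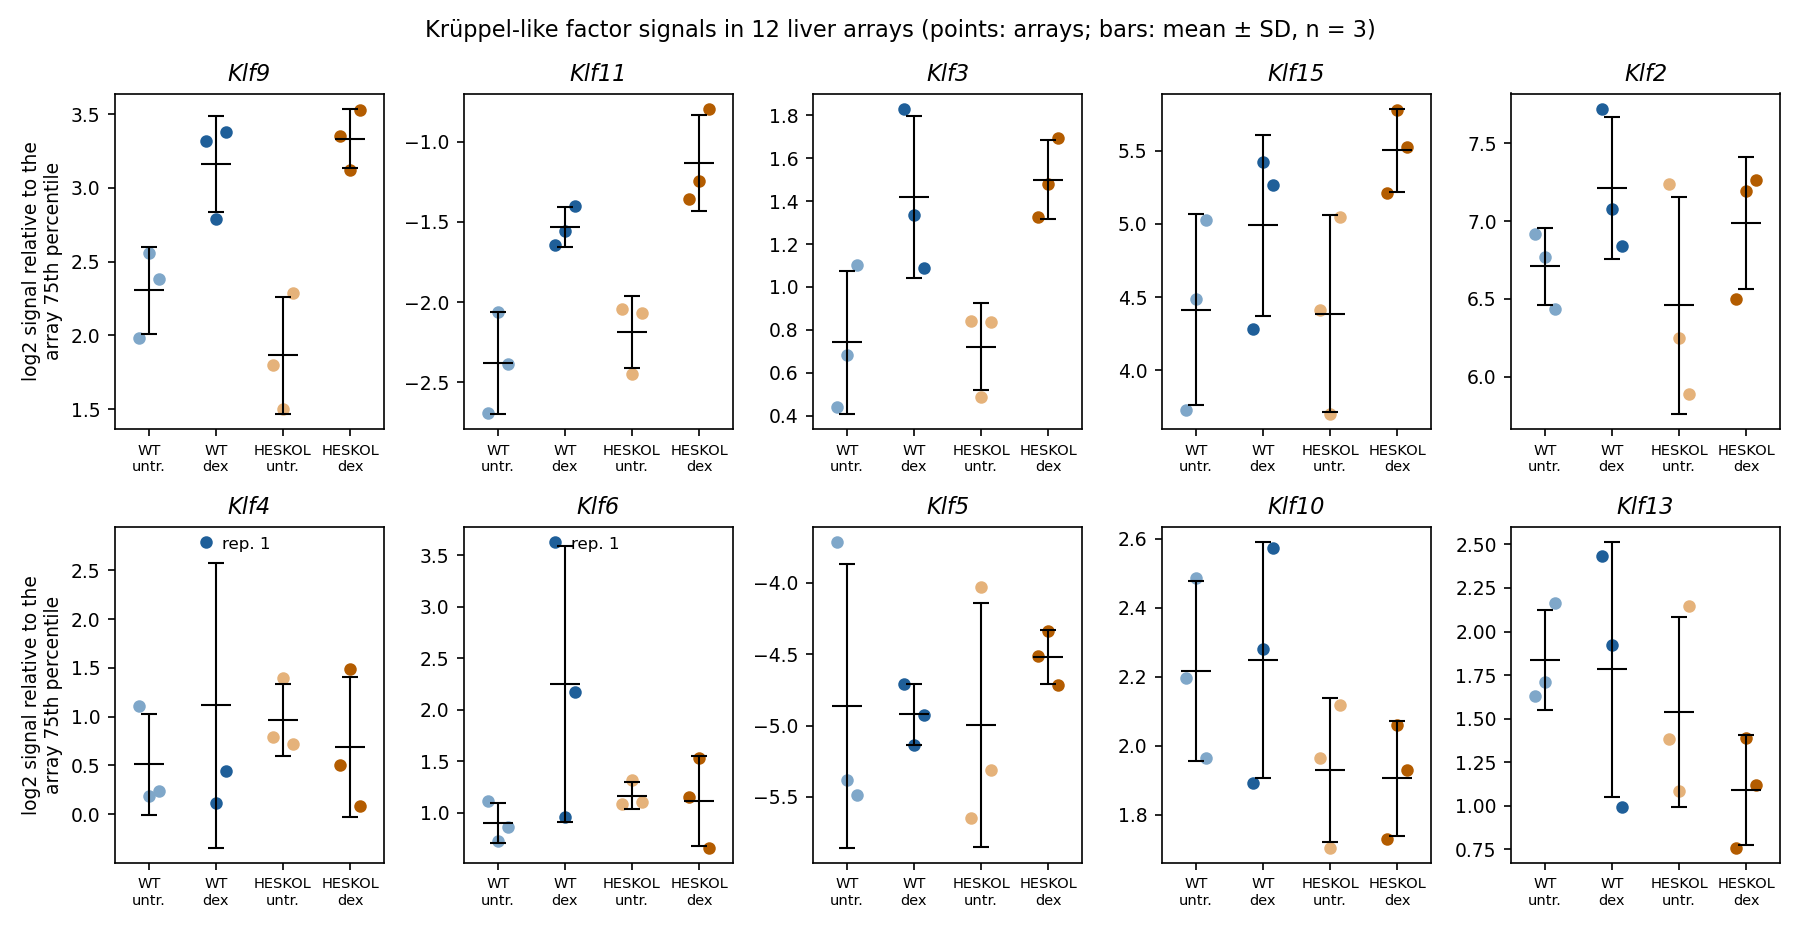
Signal of each Krüppel-like factor on 12 liver arrays, as log2 signal relative to the array's 75th percentile (vertical axes, a separate scale for each gene), in wild-type (WT) and HESKOL livers, untreated (untr.) or given dexamethasone (dex). Points are arrays and bars are the mean ± SD of 3 mice; for Klf9 and Klf11 the 6 treated livers lie above the 6 untreated ones, and Klf4 and Klf6 are highest on replicate 1 of the treated wild-type group.

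The first question was which members answered to dexamethasone. Over both genotypes, 3 of the 10 members rose, Klf9, Klf11 and Klf3, and none fell (limma with Benjamini-Hochberg adjustment over 18730 genes, threshold 0.05). Of all tested genes, 5.28% rose and 11.8% changed in either direction in this comparison. Klf9 and Klf11 rose in HESKOL liver taken alone as well, where 3.64% of all genes rose and 7.86% changed. In wild-type liver alone no member passed, against 0.192% of all genes. There 4 members, Klf3, Klf6, Klf9 and Klf11, had an unadjusted p under 0.05, as did 11.8% of all genes, and all 23 alternative settings also gave 0 calls. The members' median change was 0.59 in wild-type and 0.50 in HESKOL liver, beside -0.02 and -0.003 over all tested genes, and 8 and 6 of the 10 were higher after treatment. Markers of liver cell types moved with treatment too. Of 9 tested hepatocyte markers, Tat and Cps1 rose by 1.40 and 1.37 in HESKOL liver and Ttr fell by 1.54 (limma, adjusted p = 0.0175, 0.0337 and 0.0139). Tat is itself a glucocorticoid receptor target, so its rise need not reflect hepatocyte content. The list's summed signal, which includes Tat, was 1133 to 2037 in untreated and 1811 to 2585 in treated livers, in units of the array's 75th percentile. All 8 lymphocyte markers had lower means after treatment in both genotypes, of which Cd79a passed in HESKOL liver at -1.51 (limma, adjusted p = 0.0391), and their summed signal was 0.964 to 2.66 in untreated and 0.408 to 1.32 in treated livers. Of 8 Kupffer cell markers Adgre1 fell in HESKOL liver, by 1.60 (limma, adjusted p = 0.0403), with a summed signal of 110.2 to 268.5 in untreated and 63.5 to 177.6 in treated livers. The part of these markers in the members' changes was not tested.

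Klf9, a repressor of the BTEB subgroup that recruits Sin3A, changed most among the members over both genotypes. In untreated wild-type livers its signal was 1.98, 2.56 and 2.38, and in treated ones 3.32, 2.79 and 3.38. In HESKOL livers it was 1.80, 1.51 and 2.29 without treatment and 3.35, 3.12 and 3.53 with it. The lowest treated liver, at 2.79, lay above the highest untreated one, at 2.56, so that the 6 treated and 6 untreated livers did not overlap, as held for 4.31% of all tested genes. The change was 1.16 ± 0.19 (SE) over both genotypes, a 2.24-fold rise (limma, adjusted p = 0.00517). It was 1.47 ± 0.27 (SE) in HESKOL liver, 2.77-fold (limma, adjusted p = 0.0108), and 0.86 ± 0.27 (SE) in wild-type liver, 1.81-fold (limma, adjusted p = 0.249). The difference between the 2 changes, 0.61 with a 95% interval from -0.22 to 1.44, did not pass (limma, adjusted p = 0.847). The second Klf9 probe followed the first over the 12 arrays (Pearson r = 0.971) and gave 1.61 in HESKOL and 0.90 in wild-type liver, of which the first passed over the 27794 probes tested (limma, adjusted p = 0.0199).

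Klf11, a relative of Klf10 that also recruits Sin3A and is induced by TGF-β in other cells, also separated treated from untreated livers. Its signal was -2.70, -2.06 and -2.39 in untreated and -1.64, -1.56 and -1.40 in treated wild-type livers. In HESKOL livers it was -2.04, -2.45 and -2.07 without and -1.36, -1.25 and -0.80 with dexamethasone. Here too all 6 treated livers lay above all 6 untreated ones. The change was 0.95 ± 0.17 (SE) over both genotypes, 1.93-fold (limma, adjusted p = 0.00686), 1.05 ± 0.23 (SE) in HESKOL liver (limma, adjusted p = 0.0229) and 0.85 ± 0.23 (SE) in wild-type liver (limma, adjusted p = 0.201). The difference between these changes was 0.21 with a 95% interval from -0.52 to 0.93, and -0.16 by the second probe. Its second probe gave 0.98 in HESKOL liver and 1.06 over both genotypes (limma, adjusted p = 0.0393 and 0.00569), with r = 0.81 between the probes.

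Klf3, a repressor that acts through CtBP, rose less. Its signal was 0.44, 0.68 and 1.10 in untreated and 1.83, 1.33 and 1.09 in treated wild-type livers, which overlapped. In HESKOL livers it was 0.84, 0.49 and 0.84 without and 1.33, 1.48 and 1.69 with treatment, which did not, as for 34.3% of all genes there. The change was 0.73 ± 0.18 (SE) over both genotypes, 1.66-fold (limma, adjusted p = 0.0272), with 0.68 in wild-type and 0.78 in HESKOL liver, neither past the threshold (limma, adjusted p = 0.335 and 0.0837). Without replicate 1 of the treated wild-type group it was 0.62 over both genotypes (limma, adjusted p = 0.021) and 0.47 in wild-type liver. The second probe gave 0.76 over both genotypes (limma, adjusted p = 0.0189).

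Klf15 had the same sign in both genotypes but a wide spread. Its signal was 3.73, 4.49 and 5.02 in untreated and 4.28, 5.43 and 5.26 in treated wild-type livers, and 4.42, 3.70 and 5.05 in untreated and 5.21, 5.78 and 5.52 in treated HESKOL livers. The treated HESKOL livers were all above the untreated ones, in a comparison where 34.3% of all genes did not overlap. The wild-type groups overlapped. The change was 0.58 ± 0.43 (SE) in wild-type and 1.11 ± 0.43 (SE) in HESKOL liver (limma, adjusted p = 0.647 and 0.136), and 0.85 ± 0.30 (SE) over both (limma, adjusted p = 0.0953). Its 2 probes agreed poorly over the arrays (r = 0.312), and the other gave 0.60 and 1.27. Without replicate 1 of the treated wild-type group the change over both genotypes was 1.02 (limma, adjusted p = 0.0301), and with the mean of both probes it was 0.89 (limma, adjusted p = 0.038).

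The calls of Klf9 and Klf11 in HESKOL liver depended on single livers of that genotype. Without untreated replicate 1 the adjusted p from limma was 0.0517 for Klf9 and 0.0674 for Klf11, and without untreated replicate 2 it was 0.0536 and 0.0973, while the changes stayed between 0.92 and 1.44. Without treated HESKOL replicate 2 or 3 Klf9 was called and Klf11 was not, and without replicate 1 of the treated wild-type group Klf3 was called too. Over both genotypes Klf9 and Klf11 passed with any 1 of the 12 arrays left out, and Klf3 was lost with 6 of them: untreated replicates 1 and 2 of either genotype and treated HESKOL replicates 2 and 3. With the slide as a fixed block none of the 3 passed in either comparison. In that fit the change over both genotypes was 0.88 for Klf9, 0.96 for Klf11 and 1.17 for Klf3 (limma, adjusted p = 0.986, 0.977 and 0.882), and no gene on the array passed.

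**Figure D2:**
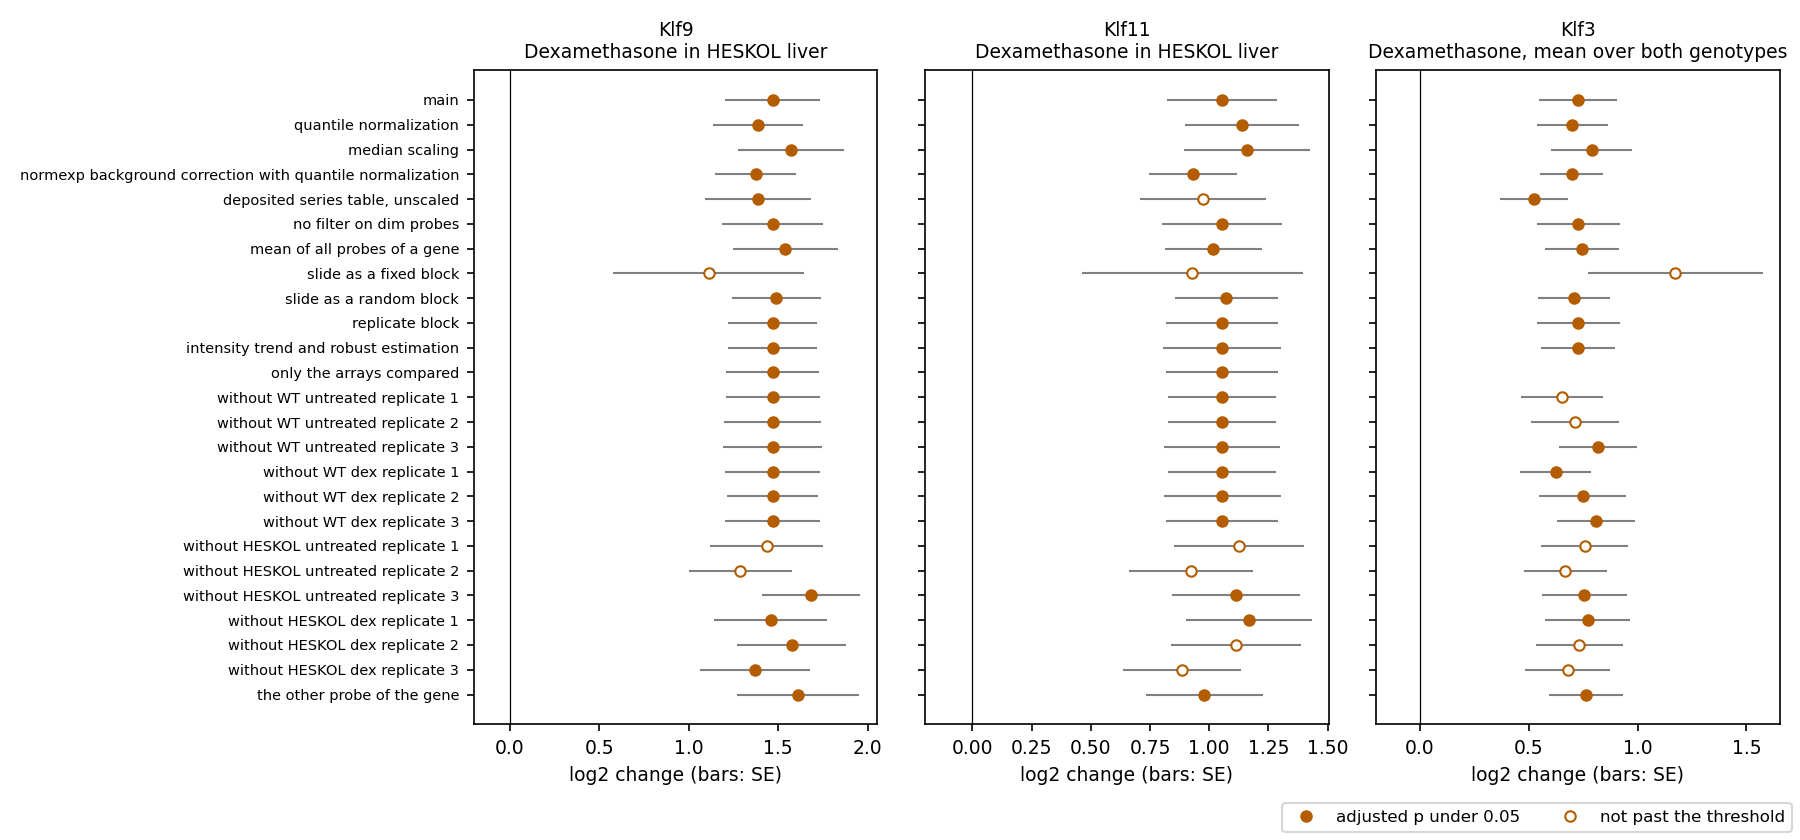
Log2 change with dexamethasone of Klf9 and Klf11 in HESKOL liver and of Klf3 over both genotypes, under each setting tried (rows; main is the value given in the text). Bars are the SE and filled points have an adjusted p under 0.05; every change is above 0, the fit on the arrays compared alone has no value for Klf3, and the calls are lost with the slide as a fixed block, with some arrays left out and, for Klf11, on the unscaled deposited table.

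Klf6 and Klf4, known as early response genes, differed most between mice of a group. Klf6 was at 1.12, 0.73 and 0.86 in untreated wild-type livers and at 3.63, 0.96 and 2.17 in treated ones. In HESKOL livers it was at 1.09, 1.32 and 1.10 without and 1.15, 1.53 and 0.67 with treatment. The change in wild-type liver, 1.35 ± 0.52 (SE), did not pass (limma, adjusted p = 0.349), and in HESKOL liver it was -0.05. After treatment the HESKOL livers differed from the wild-type ones by -1.14 (limma, adjusted p = 0.318), with overlap between the groups. The second Klf6 probe followed the first (r = 0.957) and gave 1.60 in wild-type liver (limma, adjusted p = 0.308). Without replicate 1 of the treated wild-type group, the change there was 0.66 and the HESKOL difference after treatment -0.45. Without replicate 2 that difference was -1.78 (limma, adjusted p = 0.0839).

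Klf4 was at 1.11, 0.19 and 0.24 in untreated and 2.79, 0.11 and 0.45 in treated wild-type livers, so that a single liver carried the higher mean. In HESKOL livers it was at 0.79, 1.40 and 0.72 without and 0.50, 1.49 and 0.08 with treatment. The change was 0.61 ± 0.63 (SE) in wild-type and -0.28 ± 0.63 (SE) in HESKOL liver (limma, adjusted p = 0.758 and 0.823). Without replicate 1 of the treated wild-type group the change there was -0.23. Pooled over the 4 groups, the SD between mice of a group was 0.873 for Klf4 and 0.713 for Klf6, against 0.313 for Klf9, 0.252 for Klf11 and a median of 0.39 over all tested genes.

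The wild-type liver in question also stood apart in 16 other immediate early genes, among them Fos, Jun and Egr1, transcription factors induced within minutes by growth factors or stress. The median difference of these genes from untreated wild-type liver was 4.09 in replicate 1 of the treated wild-type group. It was 0.82 and 1.57 in replicates 2 and 3, and 0.65 to 0.79 in treated HESKOL livers. In untreated HESKOL livers it was 0.613, 0.795 and 0.209. Fos was at 3.13 in that liver and at -1.38 and -1.11 in the other treated wild-type livers. Of the 10 members, 5 (Klf2, Klf3, Klf4, Klf6 and Klf13) had their highest signal of the 12 arrays in this liver, as did 10.1% of all tested genes. The part of this in the wild-type values of Klf6 and Klf4 was not tested. The probes that stood for Klf9 and Klf11 were not highest there, but their second probes were, at 2.60 for Klf9 (next 2.50) and -1.30 for Klf11 (next -1.91). Without this liver the changes in wild-type liver by the first probes were 0.78 for Klf9 and 0.90 for Klf11.

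**Figure D3:**
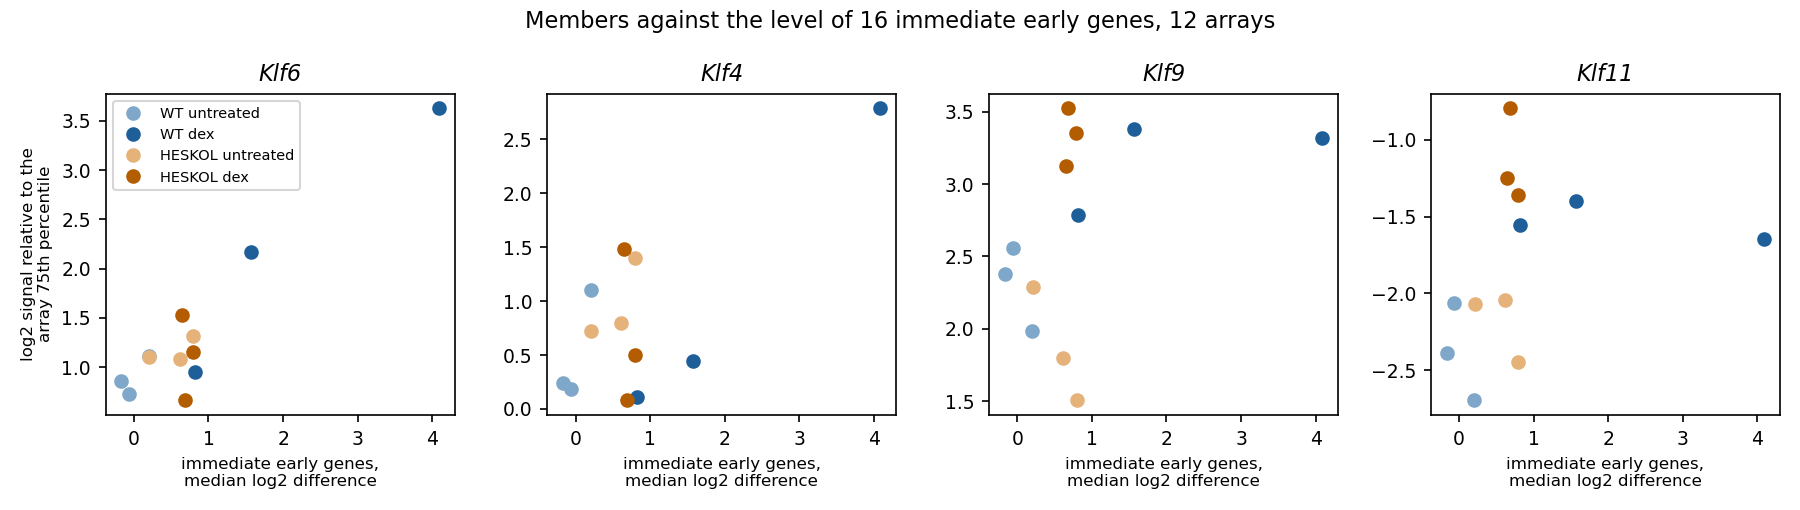
Signal of Klf6, Klf4, Klf9 and Klf11 (vertical axes, log2 relative to the array's 75th percentile) against the median log2 difference of 16 immediate early genes from untreated wild-type liver (horizontal axes); each point is 1 of 12 arrays. The treated wild-type liver at 4.09 holds the highest Klf6 and Klf4 signal, while Klf9 and Klf11, by the probes that stood for them, separate by treatment along the vertical axis.

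The remaining 4 members did not pass in any of the 7 comparisons. Klf2, a flow-responsive factor of endothelium, lay between 5.89 and 7.24 in untreated and 6.50 and 7.72 in treated livers, with a change of 0.50 in wild-type and 0.53 in HESKOL liver (limma, adjusted p = 0.643 and 0.414). Its probes agreed only in part (r = 0.477). Klf5, a factor of proliferating epithelia, was read by a probe well below the 75th percentile, from -5.65 to -3.71 over all arrays. Its highest signals came from untreated livers, -3.71 in wild-type replicate 1 and -4.03 in HESKOL replicate 2. Of 5 bile duct markers, only Spp1 was highest in the same livers, at 6.14 and 6.54 against 2.25 to 4.95 elsewhere. The others, Krt19, Krt7, Sox9 and Epcam, were highest in replicate 1 of the treated wild-type group. The list as a whole did not stand out in the wild-type liver, with a median difference of 0.07 from untreated wild-type liver, and was at 0.45 in the HESKOL one. The summed signal of 5 neutrophil markers, in units of the array's 75th percentile, was also highest in these livers, 315.5 and 243.6 against 3.06 to 166.0 in the others. So was that of 8 lymphocyte markers, 2.659 and 2.575 against 0.408 to 1.535. The part of these in the Klf5 values was not tested.

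Klf10, the TGF-β-inducible early gene, had the smallest change: it was 0.03 in wild-type liver, with a 95% interval from -0.48 to 0.55, and -0.02 in HESKOL liver, from -0.54 to 0.49. Klf13, another Sin3A-recruiting relative of Klf9, lay between 1.09 and 2.16 in untreated livers and between 0.76 and 2.43 in treated ones. Its change was -0.05 in wild-type and -0.45 in HESKOL liver (limma, adjusted p = 0.975 and 0.51), and its 2 probes, both of which join exons, followed each other (r = 0.919).

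**Figure D4:**
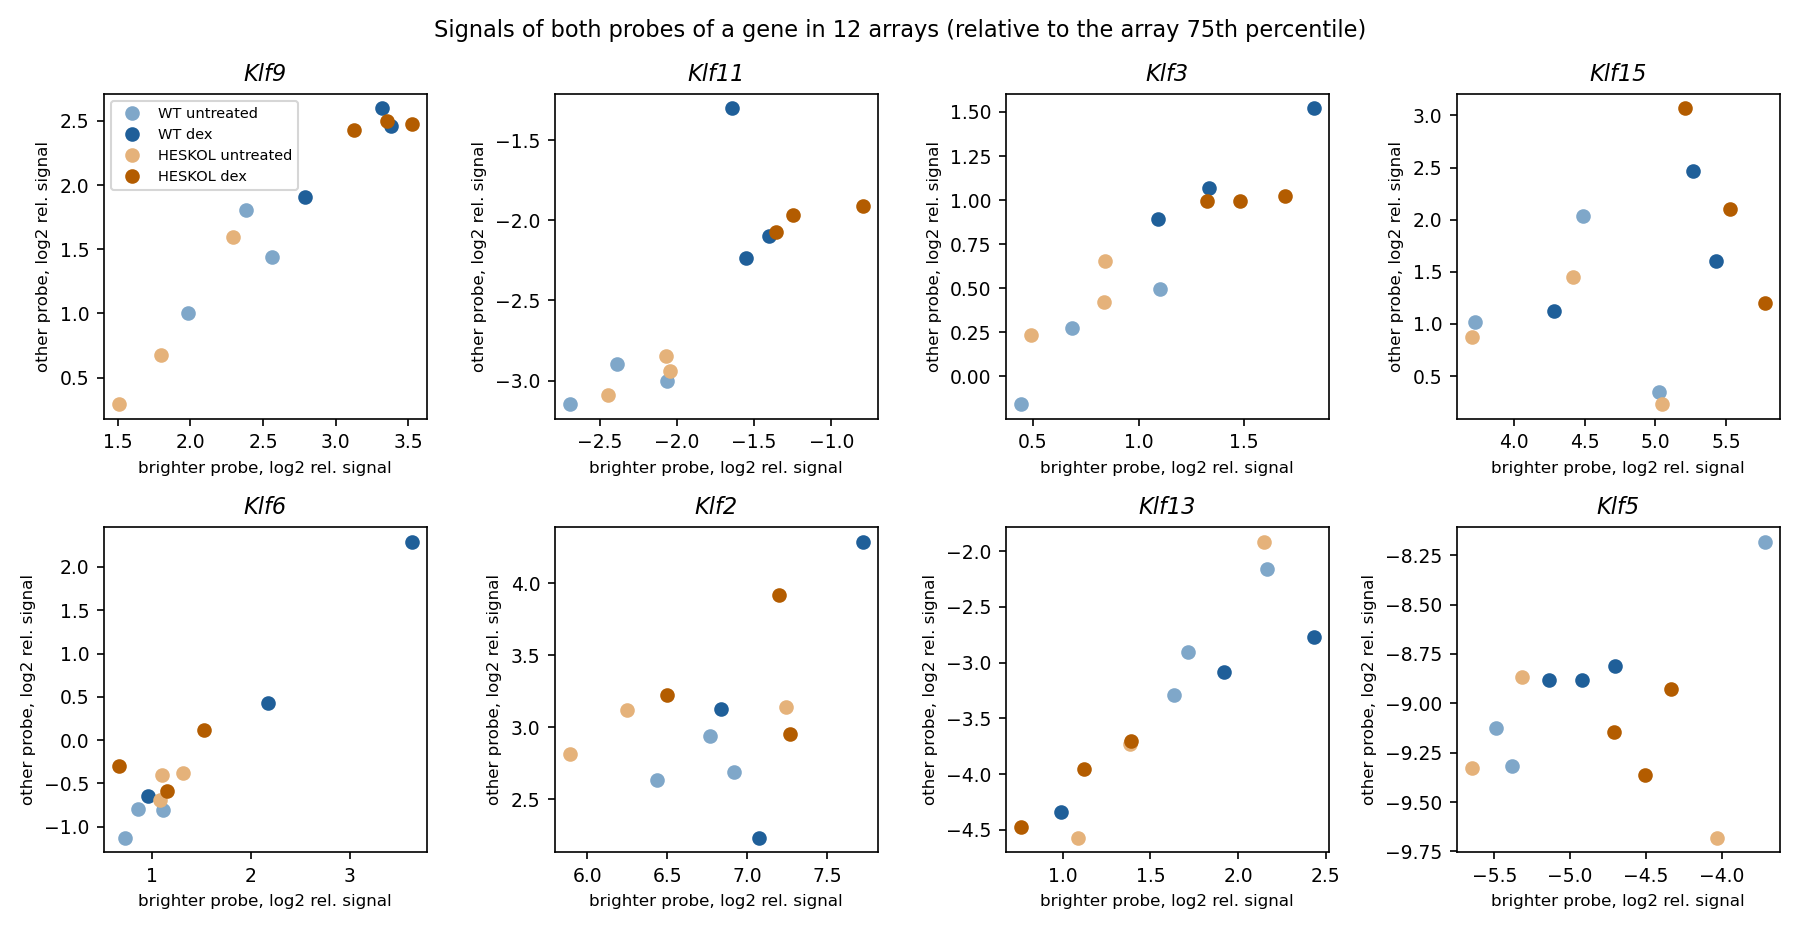
Signal of the brighter probe (horizontal axes) against the other probe (vertical axes) for the 8 genes with 2 probes, in log2 units relative to the array's 75th percentile; each point is 1 of 12 arrays. The probes of Klf9, Klf6, Klf3 and Klf13 follow each other (r from 0.919 to 0.971), and those of Klf15, Klf2 and Klf5 do so poorly (r from 0.283 to 0.477).

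The second question was whether the members differed between HESKOL and wild-type liver. None passed in untreated livers, where limma called 0 of 18730 genes and 0 of the 10 members had an unadjusted p under 0.05, against 1.59% of all genes. After dexamethasone no member passed either, against 1.14% of all genes, and 0 had an unadjusted p under 0.05, against 15.7%. The largest differences there were that of Klf6 given above and that of Klf13, at -0.69 ± 0.38 (SE; limma, adjusted p = 0.413). Klf11 was 0.40 higher without overlap between the groups by the probe that stood for it (limma, adjusted p = 0.442), as 18.2% of all genes did not overlap. Its second probe had the opposite sign, -0.10 with overlap (limma, adjusted p = 0.892), so the probes give no shared direction. Over both treatments no member passed, against 0.251% of all genes, and 0 had an unadjusted p under 0.05, against 10.1%. Klf6, at -0.44, came close behind Klf13, which had the largest difference, -0.50 ± 0.27 (SE; limma, adjusted p = 0.591). With the slide as a fixed block, the treated genotypes are compared only on the slide that held both. That slide held 1 treated wild-type liver, replicate 3, beside the 3 treated HESKOL livers. The differences after treatment were then -1.06 for Klf6 and 0.10 for Klf13, and they rest on that single wild-type liver. No alternative gave a call in these 3 comparisons.

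The dexamethasone change itself was not called different between the genotypes for any member, against 0.016% of all genes, and none had an unadjusted p under 0.05, against 6.64% of all genes. The largest difference of changes was that of Klf6, -1.40 ± 0.73 (SE), with a 95% interval from -3.01 to 0.21 (limma, adjusted p = 0.79). It was -0.72 without replicate 1 of the treated wild-type group. Since intervals of this width span both no difference and a large one, the calls in HESKOL liver alone do not show that Klf9 or Klf11 answered differently there.

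**Figure D5:**
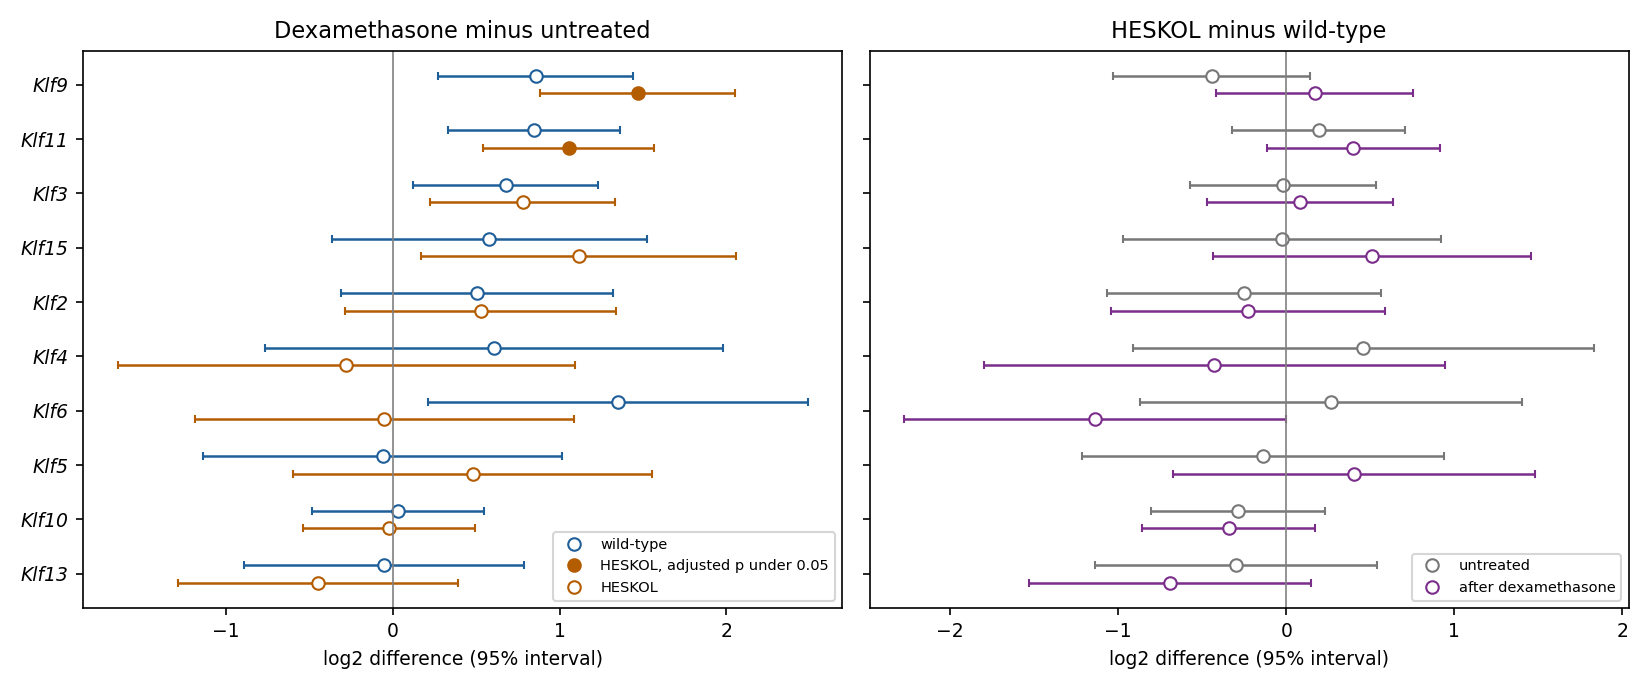
Log2 differences of the 10 members with their 95% intervals from limma: dexamethasone minus untreated in wild-type and HESKOL liver (left) and HESKOL minus wild-type in untreated livers and after dexamethasone (right). Filled points, Klf9 and Klf11 in HESKOL liver, have an adjusted p under 0.05 over 18730 genes; every genotype interval holds 0.

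The members' profiles over the 12 arrays showed which of them varied together, as a description across arrays that share treatment and slides. Klf9 and Klf11 had a Pearson r of 0.870, Klf3 with Klf9 0.839 and Klf3 with Klf11 0.817. Klf15 had r = 0.782 with Klf11 and 0.700 with Klf9, by its brighter probe, which agreed poorly with the other. Klf4 and Klf6 had r = 0.816, and 0.911 once the group means were removed, with the liver that stood apart among the 12. Klf4 had r = -0.03 with Klf9.

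Of all tested named genes, those most like Klf9 over the 12 arrays were Per1 (r = 0.964), a clock gene and glucocorticoid receptor target, Ell2 (0.957), an elongation factor, Nepro (0.957), Sec13 (0.956), a coat protein of the endoplasmic reticulum, and Pim3 (0.954), a kinase. They were picked on the same 12 arrays, on which Klf9 separated treated from untreated livers. The choice itself therefore favoured genes that change with dexamethasone, and the values that follow are a description and no separate evidence. In HESKOL liver Per1 rose by 2.32, Ell2 by 1.74, Nepro by 1.05 and Pim3 by 2.45 (limma, adjusted p = 0.0106, 0.00344, 0.0238 and 0.0164), and Sec13, at 0.43, did not pass (limma, adjusted p = 0.145). In wild-type liver only Ell2 of these 5 passed, at 1.42 (limma, adjusted p = 0.0484). The 5 genes most like Klf15 were Pak1ip1 (0.977), Mrpl47 (0.976), Cebpz, Slc4a1ap and Mtpap (0.975 each). This likeness is that of the brighter Klf15 probe, which agreed poorly with the other (r = 0.312). None of these 5 genes, also picked on the same arrays, passed in any dexamethasone comparison, and their changes in HESKOL liver ran from 0.48 to 1.05.

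The family's other members and the related SP factors gave 13 tested genes of 16. In HESKOL liver, where 7.86% of all genes changed in either direction, 2 of the 13 fell with dexamethasone and none rose. These were Sp5, a target of Wnt signalling, by 2.59, and Klf16, a repressor, by 1.55 (limma, adjusted p = 0.0168 and 0.0255). Sp5 was at 0.09, 0.02 and -0.03 in untreated and -2.91, -2.97 and -1.80 in treated HESKOL livers, without overlap, as for 34.3% of all genes there. Over both genotypes Klf12, a CtBP-binding repressor, fell as well, by 0.61 (limma, adjusted p = 0.0233). There 3 of the 13 fell and none rose, beside 11.8% of all genes that changed in either direction. In wild-type liver none passed, with Sp5 at -1.34 and Klf16 at -0.47 (limma, adjusted p = 0.354 and 0.652). The list's median change was 0.005 in wild-type and -0.20 in HESKOL liver. Of 14 cofactors and regulators of the family, among them CtBP, Sin3A, histone deacetylases and p300, none was called in any comparison, and the median change was -0.12 in wild-type and -0.03 in HESKOL liver.

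Of 10 amino acid breakdown genes linked to Klf15, 4 rose in HESKOL liver and none fell, where 3.64% of all genes rose. They were Sds, which deaminates serine, by 2.57, Tdo2, which opens the tryptophan ring, by 2.28, Aass, of lysine breakdown, by 2.05, and Tat, of tyrosine breakdown and a glucocorticoid receptor target in its own right, by 1.40 (limma, adjusted p = 0.0282, 0.0108, 0.0116 and 0.0175). In wild-type liver none passed, with Tat at 1.49 (limma, adjusted p = 0.0935). Prodh and Bcat2, of proline and branched-chain amino acid breakdown, were at -0.07 and -0.10 in HESKOL liver (limma, adjusted p = 0.929 and 0.86). The list's median was 0.72 in HESKOL and 0.29 in wild-type liver.

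Of 9 tested endothelial genes known to be controlled by Klf2 and Klf4, 3 rose and 1 fell in HESKOL liver, where 7.86% of all genes changed. Edn1, the vasoconstrictor endothelin, rose by 2.20, Vcam1, an adhesion molecule, by 1.84, and Thbd, the anticoagulant thrombomodulin, by 1.66, while S1pr1, a lipid receptor, fell by 1.70 (limma, adjusted p = 0.0047, 0.00472, 0.0347 and 0.0025). Over both genotypes Nos3, which makes nitric oxide, rose as well, by 0.77 (limma, adjusted p = 0.0445), giving 4 that rose and 1 that fell. Of all genes 11.8% changed there. S1pr1 was at 1.65, 2.06 and 1.23 in treated wild-type livers and at -0.26, -0.33 and -0.25 in treated HESKOL livers, a difference of -1.92 that passed (limma, adjusted p = 0.00356). Klf2 and Klf4 are activators of Nos3 and Thbd and repressors of Edn1 and Vcam1 in endothelium, and the risers belong to both kinds. Markers of endothelial cells moved in both directions, with Lyve1 higher by 2.62 and Kdr and Fcgr2b lower by 1.56 and 1.00 in HESKOL liver (limma, adjusted p = 0.0025, 0.0259 and 0.0412). Their summed signal was 36.9 to 53.9 in untreated and 41.5 to 50.6 in treated livers, in units of the array's 75th percentile, and its part in these results was not tested.

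As a gauge of the treatment, the group means of all 11 tested glucocorticoid receptor targets were higher after dexamethasone in both genotypes, of which 3 passed in wild-type and 8 in HESKOL liver, with medians of 1.85 and 2.03. The wild-type median is the change of Fkbp5, which varied widely among treated livers, with an SD of 2.73 (n = 3), and did not pass (limma, adjusted p = 0.531).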

How the data were processed

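Total liver RNA (500 ng per mouse) was labelled with Cy3, per the labels. The values are intensities that the authors obtained, per the file headers, from Agilent Feature Extraction 9.5.3.1 (9.5 in the submitters' processing notes), on a design drawn on mm7; the processed signal is background-subtracted. The deposited series table repeats these intensities unscaled (ratio 1), with column medians from 53.7 to 112.

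Signals were scaled here as log2 minus the 75th percentile of each array, outlier spots left out, spots of a probe averaged. The brightest probe stood for a gene, tested if every array of at least 1 group put it well above background. Group means over 12 arrays were fitted with limma 3.58.1 in R 4.3.3 (8 residual, 3.12 prior degrees of freedom), with 7 contrasts and Benjamini-Hochberg adjustment over 18730 genes at 0.05. Fits were tested on simulated data. The 12 arrays limit the precision.

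The members and gene lists were chosen with earlier results of these data known. All members, Hes1, up to 4 genes per list and comparison by smallest p (short lists whole) and the 5 genes most correlated with Klf9 and Klf15 are named; Fos, albumin and Spp1 were named after their values were seen. Alternatives covered scaling, background, filter, probes, slide and replicate blocks, estimation, the arrays compared alone, and each array left out; the gene's other probe was added after seeing the data.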

Additional observations from a re-analysis of the deposited data

Results flagged for a closer look

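Klf6 drew a closer look because its genotype difference pointed opposite ways in the 2 treatments: all 3 untreated HESKOL livers lay above the untreated wild-type mean and all 3 treated HESKOL livers lay below the treated wild-type mean. The single livers of the genotypes overlapped in both treatments. The difference between treatments was -1.40 on the log2 scale, and -0.72 without replicate 1 of the treated wild-type group. It was tested by the interaction term and did not pass (limma, adjusted p = 0.79).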

How the results depend on the processing

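Of 1629 recomputed changes of single members, 1607 kept their side of the threshold, 18 calls were lost, 4 were gained and none reversed. The 2 members called with dexamethasone in HESKOL liver became 1 (Klf9) on the unscaled deposited table and 0 with the slide as a fixed block, and 0 to 3 with an array left out. The 3 called over both genotypes became 0 with the slide as a fixed block and 2 to 4 with an array left out. The other 5 comparisons gave 0 calls under all alternatives run. In the slide block the treatment effect rests on few arrays, since no slide holds both treatments of a genotype; the cause of the lost calls was not tested. Klf3 in HESKOL liver was gained with normexp background correction at 0.74 (limma, adjusted p = 0.0469). With the replicate block the counts were 0, 2 and 3 for dexamethasone in wild-type liver, in HESKOL liver and over both, as without it. Same-numbered arrays correlated between -0.4 and 0.623 over 18 pairs, of which 6 exceeded 0.1, so the numbers were not taken as pairing. With the unscaled table the median change of all genes ran from -0.35 to 0.25 over the comparisons, against -0.02 to 0.045 as reported and up to 0.10 with median scaling. The second Klf5 probe was not well above background and gave no test.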
